A study of Papio anubis with 767 samples.

Results

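The genes described here are the potassium channel genes of the baboon, chosen as every row of the deposited expression table whose symbol begins with KCN, further letters and a number. This gave 91 of 29202 rows. Of these, 85 are subunits of potassium channels and 6 are RNAs of the KCNQ1 region (KCNQ1DN in 2 rows and 4 KCNQ1OT1 segments). Values above 0 were found for 90 rows, and 1 KCNQ1DN row was listed at 0 in every library. KCND2, KCNE1, KCNJ12 and KCNMB2, which code for further heart or brain subunits, were not analysed here.

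The samples came from 12 male baboons (Papio anubis; Papio anubis hamadryas in the labels' protocol), aged 5 to 6 years and weighing 7 to 11 kg, housed with alternating light and dark phases of 12 h each, with meals at set hours, and perfused before the tissues were taken. No animal received an experimental treatment, and the groups are tissues and times of day. By the labels, 1 animal was sampled every 2 h from ZT0 to ZT22, and 64 tissues were taken from each, so time and animal cannot be told apart. PolyA RNA was sequenced, with 12 libraries for each tissue and 11 for the iris, 767 in all. The tissues were grouped into 22 brain regions, 35 peripheral tissues and 7 eye or gland tissues.

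Potassium channels let potassium ions leave or enter the cell and so set the resting membrane potential and end action potentials. Voltage-gated channels (KCNA to KCND, KCNQ, KCNH) open on depolarisation, and the silent subunits (KCNF, KCNG, KCNS, KCNV) work only in tetramers with other voltage-gated subunits. Inward rectifiers (KCNJ) pass current near the resting potential, some under the control of G proteins or ATP. Two-pore channels (KCNK) carry leak current, KCNM, KCNN, KCNT and KCNU channels respond to calcium, sodium or pH, and auxiliary subunits (KCNE, KCNIP, KCNAB, KCNMB) alter how pore subunits gate or reach the membrane. In the heart these currents repolarise the cell after each beat, and in neurons of the suprachiasmatic nuclei, the master circadian clock, potassium currents set the daily rhythm of firing.

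Levels are given as FPKM, reads per length of transcript and depth of library, so that genes can be compared with one another. Reads assigned to genes ran from 32790, in the amygdala library of ZT8, to 31811286 per library, with a median of 8255404. In bulk tissue, fewer cells of a type and less RNA per cell cannot be told apart. A total of 64 libraries stood apart from their tissue. Of these, 18 correlated with it below 0.85, 61 held markers of a cell type far above the tissue's usual level and 1 was the shallow amygdala library. Some of these cell types are native to the tissue, such as spermatids in the testicles and adipocytes in pericardial fat, and some markers were of red blood cells. The 64 include the heart library of ZT4, the liver libraries of ZT0 and ZT6, the testicle libraries of ZT2 and ZT14 and the iris libraries of ZT6 and ZT8. In a comparison over 200 genes, 82 of the other 703 libraries, in 19 tissues, resembled another labelled animal more than their own. Among them were all 12 of each colon part, 11 of the duodenum, 10 each of the thyroid and testicles and 8 of the stomach fundus. Each of these was closest to the animal of the preceding time, and the 6 from the iris to that of the following time. None of the 82 libraries was from the heart, the skeletal muscles, the suprachiasmatic nuclei or the cerebellum. Libraries labelled adrenal cortex lacked the steroid-making genes, with a median of 0 FPKM for CYP11A1, whereas those labelled adrenal medulla had a median of 2272 FPKM. Both are therefore called by their labels.

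Of the 91 rows, 84 reached a mean of 1 FPKM in at least 1 tissue, 59 reached 10 FPKM and 11 reached 100 FPKM. No member reached 1 FPKM in all 64 tissues, and 7 reached it in none. The most widespread were KCNAB3, a beta subunit of voltage-gated channels, and KCNK1, a two-pore channel, each in 63 tissues, followed by KCNMB4 in 62 and KCNMA1, the pore of the BK channel, in 58. At the other end, 11 members reached 1 FPKM in only 1 to 5 tissues. Among these were KCNA7, in both skeletal muscles only, and KCNK16, KCNV2 and KCNA3.

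The highest tissue was a brain region for 40 of the 84 members, a peripheral tissue for 30 and an eye or gland tissue for 14. The amygdala was highest for 11 members, the cerebellum for 10 and the iris for 8. Without the libraries that stood apart, an alternative chosen after seeing the data, these counts were 14, 10 and 3. A brain region held 40 to 61 members at 1 FPKM or more (median 48), an eye or gland tissue 14 to 45 (median 41) and a peripheral tissue 11 to 36 (median 21). The counts of highest tissues and of members at 1 FPKM were not set against those of all genes. The heat map of the 64 tissues shows the brain block filled across families and the periphery with a few high members in each organ.

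**Figure D1:**
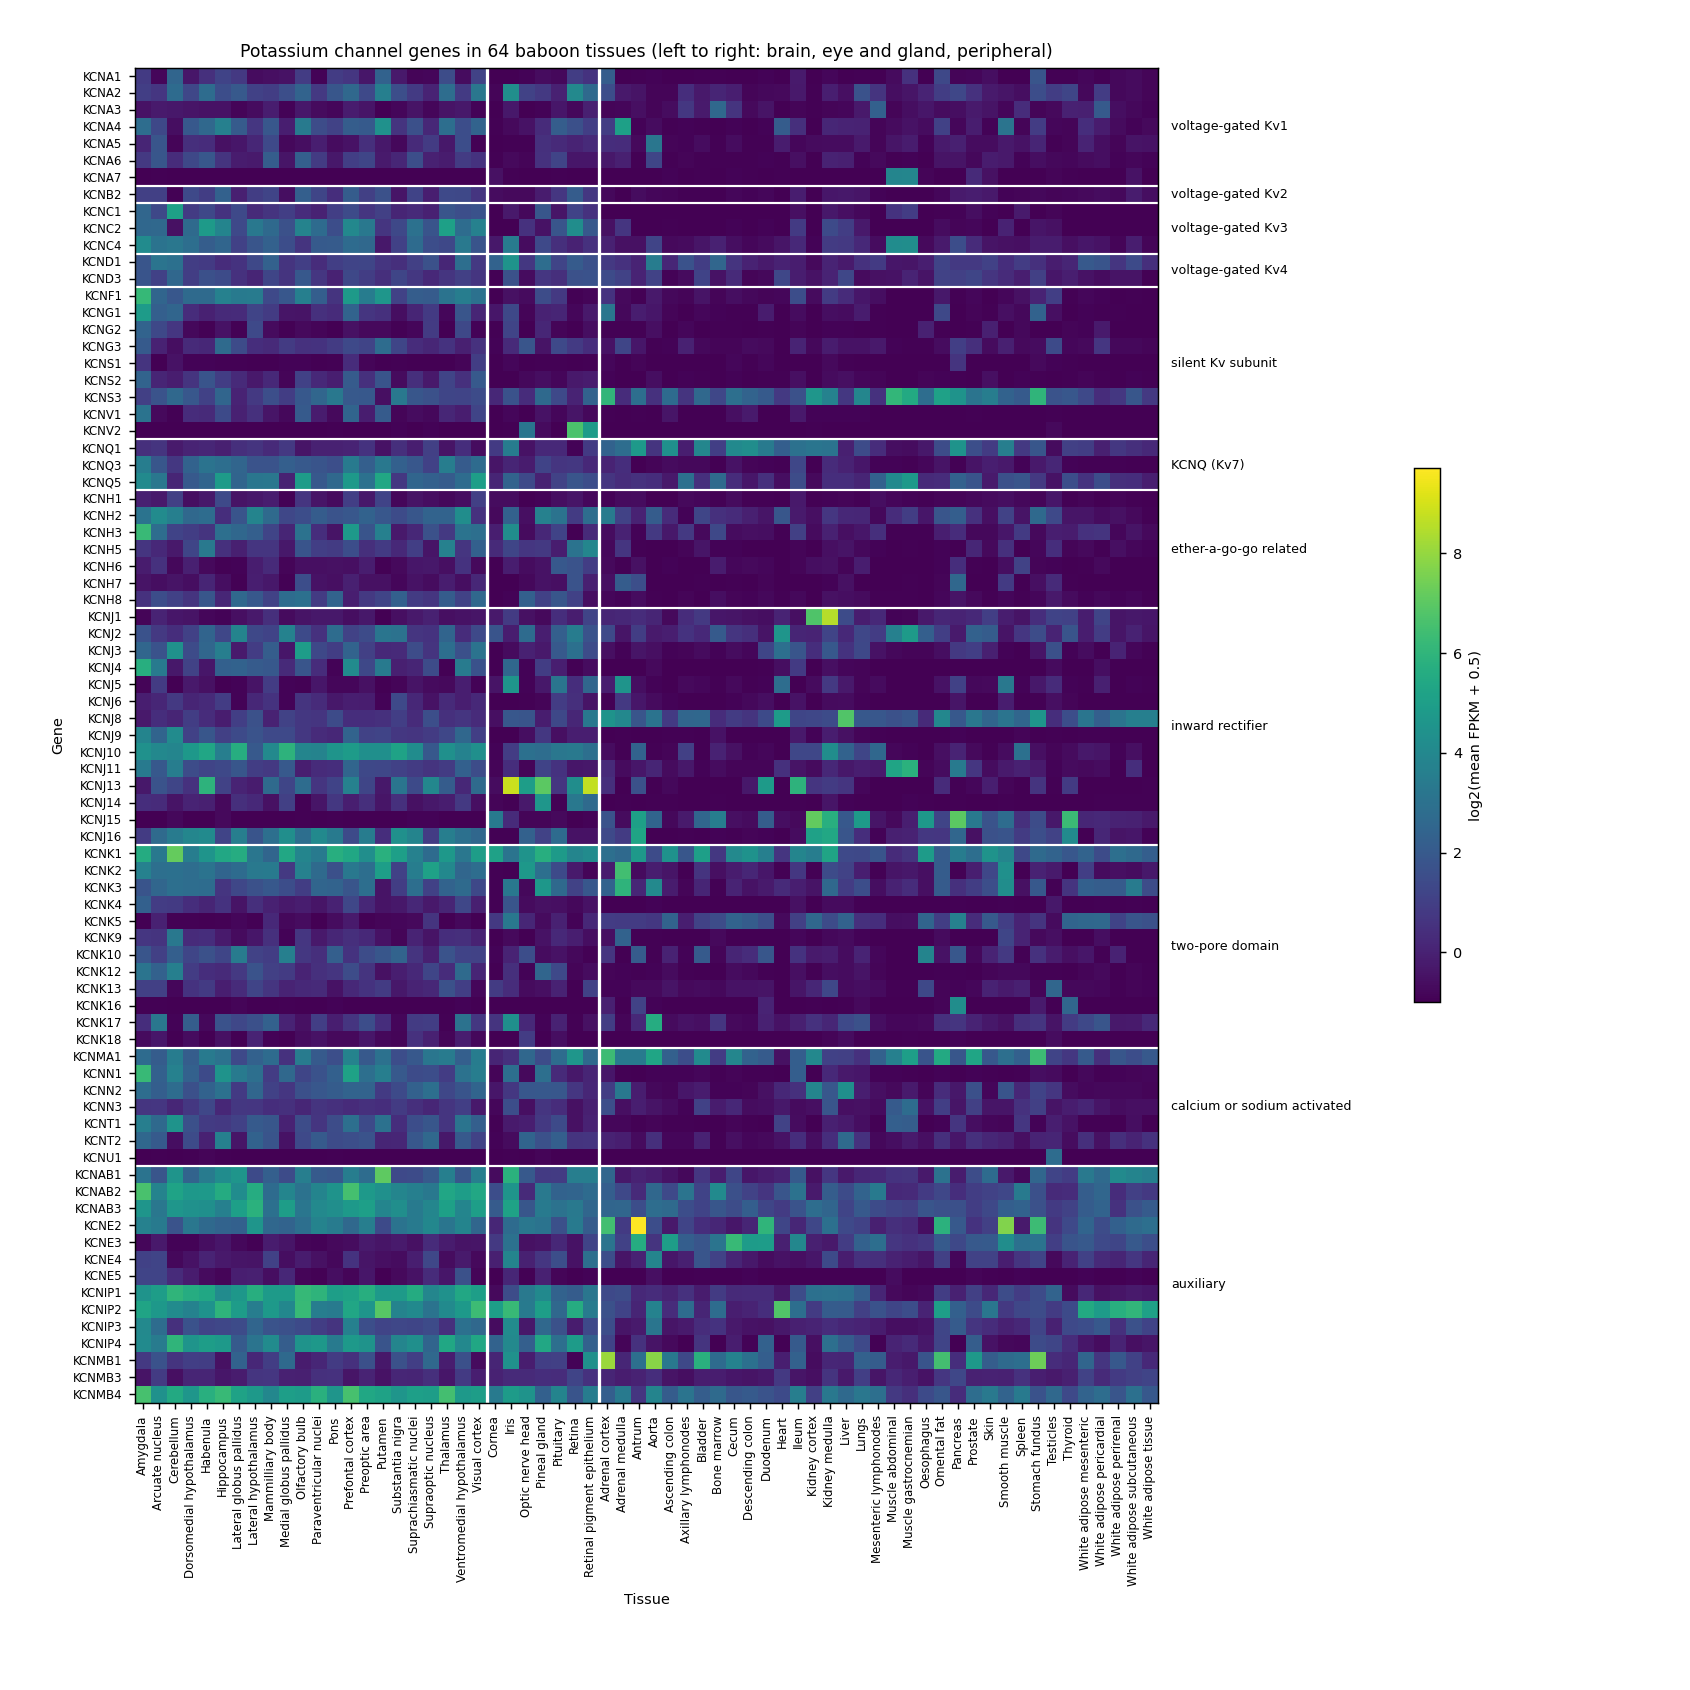
Rows are potassium channel subunit genes that reached 1 FPKM on average in at least 1 tissue, grouped by family, and columns are the 64 tissues; colour is log2(mean FPKM + 0.5). Brain regions (left block) share most members, while single peripheral and eye tissues stand out for KCNE2 in antrum, KCNJ1 in the kidney and KCNJ13 in iris and retinal pigment epithelium.

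The first comparison set the 22 brain regions against the 35 peripheral tissues within each animal. Of 91 members, 63 passed the filter of 1 FPKM, averaged over the tissues of either class, and 28 were not tested. In the brain, 52 members (82.5%) were higher, against 41.4% of all genes tested, and 10 (15.9%) were lower, against 50.3% of all genes. The median difference was 1.59 on the log2 scale for the members and -0.13 for all genes. Higher members came from every family: 8 of 12 inward rectifiers, 9 of 12 auxiliary subunits, 6 of 7 two-pore channels and 4 of 5 KCNQ genes tested. All 4 tested of each of the Kv1, Kv3 and KCNH families were higher, of 7, 4 and 7 genes in the table. Untested Kv1 genes lay on both sides. KCNA3 (0.196 FPKM in brain, 0.601 in periphery) and KCNA7 (0.00482 and 0.858) had higher means in the periphery, and KCNA5 (0.705 and 0.465) in the brain.

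KCNIP1, a calcium-binding partner of Kv4 channels, had a mean of 37.3 FPKM in the brain and 1.65 in the periphery, and the difference was 4.75 ± 0.08 (SE) on the log2(FPKM + 0.5) scale, in 12 of 12 animals (adjusted p = 4.2e-19). Its brain regions ran from 14.8 to 71.7 FPKM and its peripheral tissues from 0.0544 to 7.77, in the kidney medulla. In that tissue 3 libraries (ZT0, ZT6, ZT8) stood apart by markers of neurons and glia, the neuron markers being at 240 FPKM at ZT6 against a median of 1.49, and its KCNIP1 mean was 0.432 FPKM without the libraries that stood apart. Tissue means thus did not overlap, although single libraries did. KCNJ10, the inward rectifier with which astrocytes take up potassium, had 22.1 against 1.47 FPKM (log2 difference 4.20 ± 0.08). KCNIP4 had 20.6 against 1.14 FPKM (log2 difference 3.92 ± 0.09).

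Among the pore subunits, KCNC2, a fast Kv3 channel, had 8.71 FPKM in the brain and 0.222 in the periphery (log2 difference 3.34 ± 0.06). KCNQ3, a subunit of the M-current channels that hold neurons below threshold, was higher by 2.88 ± 0.06 on the log2 scale. KCNF1, a silent subunit, was higher by 3.31 ± 0.08, KCNN1, a small calcium-activated channel, by 3.29 ± 0.10, and KCNK2, a mechanosensitive leak channel, by 2.94 ± 0.08. The auxiliary subunits KCNAB2, KCNMB4 and KCNAB3 were higher by 3.16 ± 0.07, 3.09 ± 0.08 and 2.59 ± 0.09, each in 12 of 12 animals.

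Of the 10 lower members, KCNE3, a KCNQ1 partner in gut epithelium, had 0.216 FPKM in the brain and 9.61 in the periphery (log2 difference -2.60 ± 0.06), and the pore gene KCNQ1 itself 0.67 against 5.79 (-1.36 ± 0.07). KCNJ15 had 0.0158 against 15.7 FPKM (-2.33 ± 0.05), and KCNJ1, the renal ROMK channel, 0.259 against 14.1 (-0.85 ± 0.07). KCNJ8, the vascular ATP-sensitive channel, differed by -1.76 ± 0.07, and KCNMB1, the smooth muscle BK subunit, had 1.81 against 26.6 FPKM (-1.33 ± 0.07). KCNS3 differed by -0.95 ± 0.06, and KCNK5, KCNE4 and KCNJ5 were also lower. KCNMA1 was not called, at 6.24 FPKM in the brain and 13.3 in the periphery (adjusted p = 0.63).

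For 4 members the arithmetic and the log scale pointed in opposite directions. KCNE2 had a mean of 8.8 FPKM in the brain and 39.9 in the periphery, yet its log2 difference was 1.36 ± 0.07 in favour of the brain, and its highest tissue was the antrum. KCNJ11, KCNK3 and KCNK17 showed the same kind of split. Of the partner genes, 8 of 10 tested were higher in the brain, among them DPP10 (16.3 against 0.935 FPKM) and DPP6 (23.7 against 1.98), which work with Kv4 channels. ABCC9, the vascular sulphonylurea receptor that pairs with KCNJ8, was lower (0.781 against 7.29 FPKM).

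Within the brain, the cerebellum was compared with the mean of the other 21 regions of the same animal. Its libraries carried granule cell markers at a median of 209 FPKM, from 57.2 at ZT4 to 274, against a median of 0.269 in the amygdala. Of 61 members tested, 34 were higher in the cerebellum (55.7%, against 40% of all genes) and 23 lower (37.7%, against 31.1%).

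KCNC1, a Kv3 gene that serves rapid firing, had 6.0, 36.1 and 55.5 FPKM as lowest, median and highest of 12 cerebellar libraries and a median of 1.13 elsewhere (log2 difference 4.11 ± 0.23, adjusted p = 8.2e-10). The libraries of ZT4 (6.0 FPKM) and ZT20 (8.71) were below the other 10 and within the range of the other regions, which reached 11.3 FPKM. KCNC4 was higher by 1.29 ± 0.20. KCNC2 was 0.2 FPKM in the cerebellum and 9.12 elsewhere (-3.22 ± 0.10), as the plot of these genes by region shows.

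**Figure D2:**
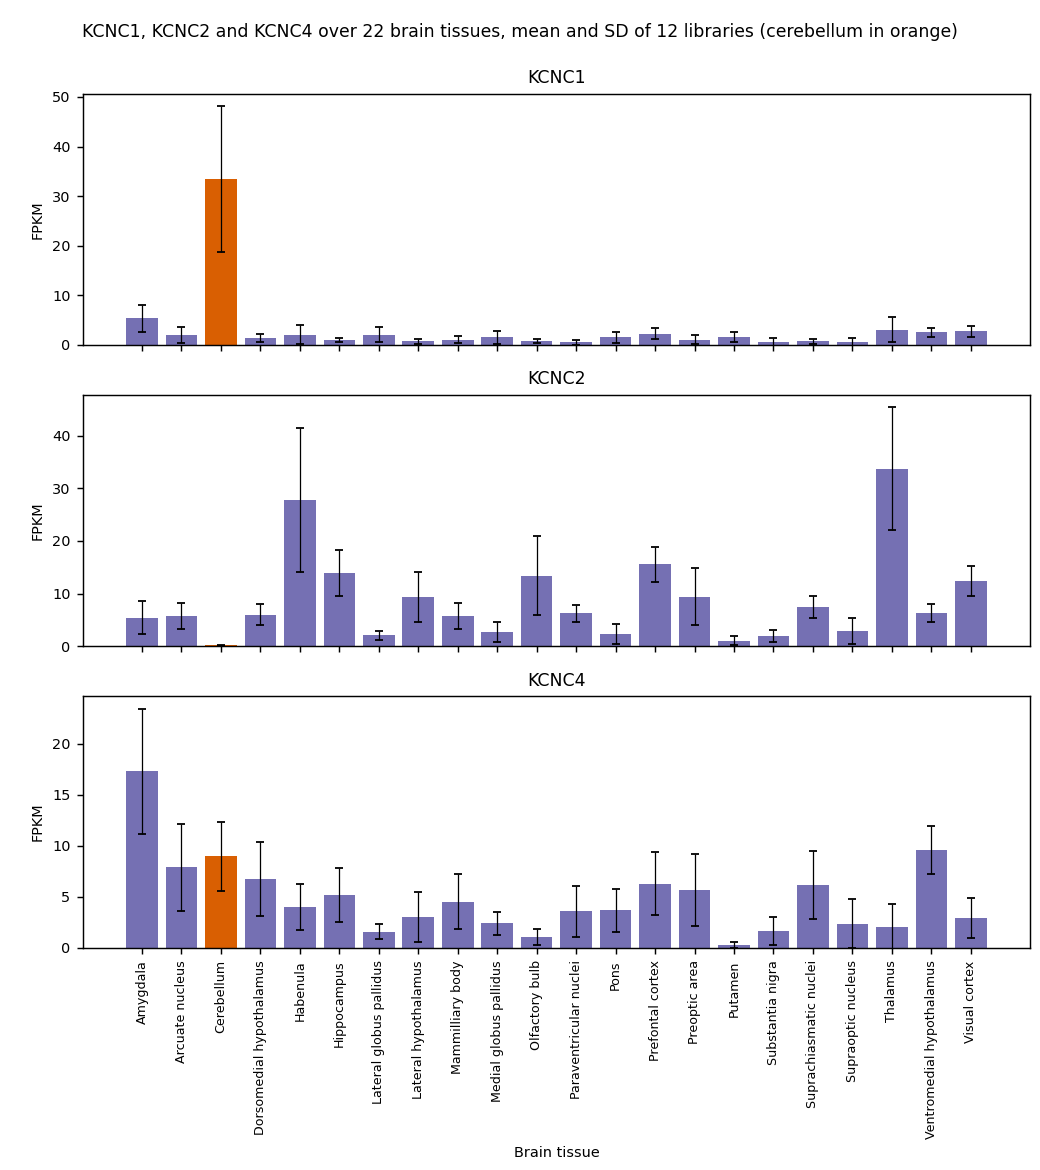
Bars are the mean FPKM of KCNC1, KCNC2 and KCNC4 in the 22 brain regions, with the SD over 12 libraries; the cerebellum is orange and each panel has its own scale. KCNC1 was highest in cerebellum, KCNC2 was lowest there and highest in thalamus and habenula, and KCNC4 was highest in amygdala.

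Of 8 two-pore channels tested, 6 were higher in the cerebellum, KCNK17 was lower (-1.51 ± 0.14) and KCNK2 was not called. KCNK1 reached 92.7, 146 and 196 FPKM as lowest, median and highest, above every library of the other regions (at most 80.2; log2 difference 2.88 ± 0.10). KCNK9, the TASK channel of granule cells, had 4.40, 10.6 and 12.7 FPKM against at most 2.81 elsewhere, again with no overlap (3.28 ± 0.15). KCNK12 was higher by 2.80 ± 0.25.

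Other higher members were the sodium-activated KCNT1 (22.4 against 3.49 FPKM), the G protein-gated KCNJ3 (21.2 against 4.49) and KCNJ9 (17.2 against 2.75), KCNJ11, KCNA1, KCNIP4 (64.3 against 18.5) and KCND1. Lower were KCNQ5 (0.572 against 12.0 FPKM, log2 difference -2.79 ± 0.11), KCNJ4 (-1.68 ± 0.12) and KCNQ3 (-1.63 ± 0.11). KCNE2 (-1.33 ± 0.16), KCNF1, KCNJ13, KCNH3 and KCNIP2 (-0.42 ± 0.12) were lower as well. KCNH3 lost its call with a pseudocount of 0.1 (adjusted p = 0.0776).

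The suprachiasmatic nuclei were compared with 8 other hypothalamic regions. AVP, a peptide of suprachiasmatic neurons, had a median of 417 FPKM and ran from 2.77 to 1910 among the 12 libraries, and VIP had a median of 23.7. Levels of AVP and VIP in the other hypothalamic regions are not given here, so these values do not set the nuclei apart from them. The library of ZT14 had a median neuron marker level of 25.8 FPKM, against 145 as the median over the 12 libraries. Of 54 members tested, 9 were higher (16.7%, against 20.4% of all genes), 18 were lower (33.3%, against 33.4%) and 27 were not called. Both shares lie near those of all genes.

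KCNJ16, which joins KCNJ10 in glial channels, had 3.40, 14.5 and 20.9 FPKM as lowest, median and highest of 12 suprachiasmatic libraries and a median of 6.12 over the 96 other libraries (log2 difference 1.09 ± 0.22, adjusted p = 0.00068). KCNJ10 was higher by 0.73 ± 0.23. Of 7 two-pore channels tested, 3 were higher, 3 lower and 1 not called: KCNK3, KCNK1 and KCNK2 were higher by 0.61 ± 0.22, 0.48 ± 0.12 and 0.41 ± 0.09, and KCNK12, KCNK17 and KCNK13 differed by -1.04 ± 0.12, -0.92 ± 0.20 and -0.58 ± 0.11. KCNIP4 was higher by 0.60 ± 0.18. KCNK3 was not called without the animal of ZT0, ZT2, ZT20 or ZT22 (highest adjusted p = 0.0617). The ranges of the higher members named here overlapped.

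Of the lower members, KCNH2, the ERG channel, had a mean of 3.15 FPKM in the suprachiasmatic nuclei and 9.34 elsewhere (-1.13 ± 0.12), in 12 of 12 animals. KCNAB3 differed by -0.63 ± 0.12, lower in 12 of 12 animals, and KCNAB2 differed by -0.60 ± 0.20. Under 5 FPKM, KCNJ4 (0.563 against 4.28 FPKM) and KCNH3 (0.628 against 3.53) had the largest differences. Of 13 genes in the table from a list of channels studied in suprachiasmatic neurons, 4 were higher, 2 lower and 7 not called. KCNMA1, whose BK channel shapes the day and night firing of these neurons, was among those not called (3.37 against 4.83 FPKM, adjusted p = 0.0598), as was KCNC2 (7.45 against 6.47).

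The heart was compared with both skeletal muscles of the same animal. Its libraries were ventricular by MYL2, with a median of 27187 FPKM, and the atrial genes MYL4 and NPPA had medians of 0.276 and 1.78 FPKM, while MYL7 had 2451. Of 28 members tested, 13 were higher in the heart (46.4%, against 33.6% of all genes), 13 were lower (46.4%, against 43.4%) and 2 were not called. From a list of heart channel genes, 14 were tested, of which 10 were higher and 3 lower.

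KCNIP2, the Kv4 partner needed for the transient outward current, had 47.9, 90.3 and 237 FPKM as lowest, median and highest of 12 heart libraries and 0.942, 1.86 and 3.42 in 24 skeletal muscle libraries. The groups did not overlap (log2 difference 5.26 ± 0.24, adjusted p = 2.8e-11). KCNJ3 and KCNJ5, which together form the acetylcholine-gated channel, had means of 7.06 and 6.62 FPKM in the heart and 0.0676 and 0.0067 in muscle, without overlap. KCNJ8 had 17.8, 30.6 and 36.5 FPKM against 1.23, 2.70 and 5.73 (3.14 ± 0.08), also without overlap. KCNJ2, the main ventricular inward rectifier, had 23.5 against 19.9 FPKM (0.33 ± 0.14, adjusted p = 0.0479), a call lost when any of 8 animals was left out (without ZT0, ZT4, ZT6, ZT8, ZT10, ZT14, ZT18 or ZT22; highest adjusted p = 0.0964). Its mean was 27.7 FPKM in gastrocnemian and 12.2 in abdominal muscle, on either side of the heart.

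**Figure D3:**
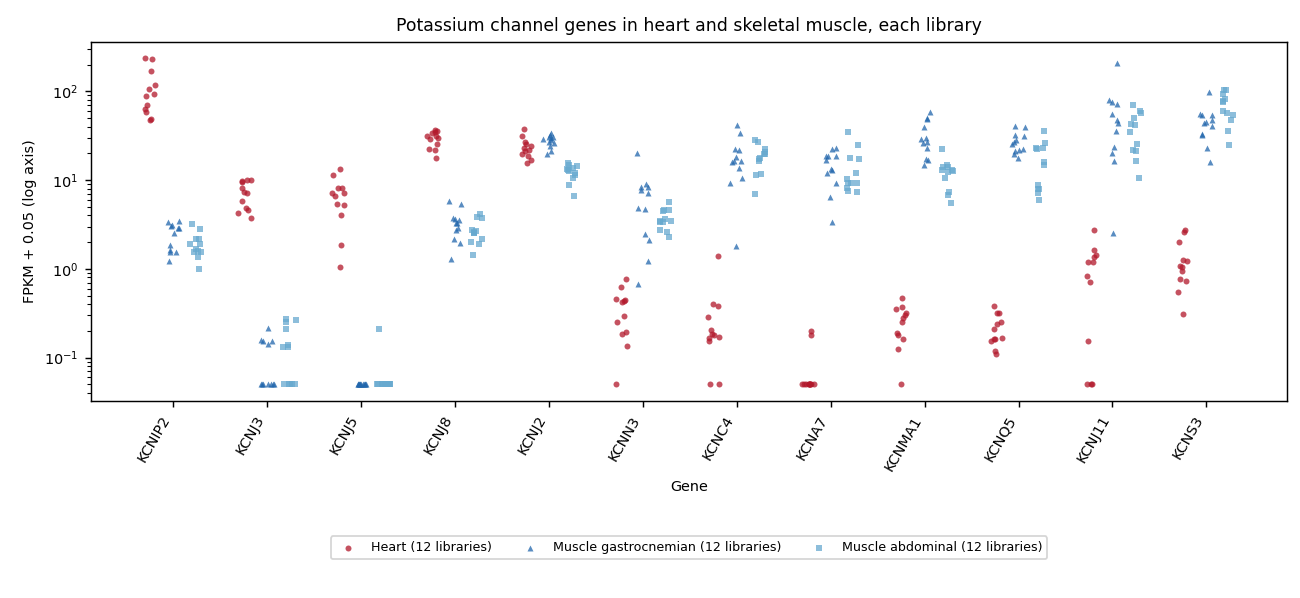
Each point is the value of 1 library (FPKM + 0.05, log axis) for 12 called members with a mean of 5 FPKM or more in heart or skeletal muscle, ordered by log2 difference; colours and shapes mark heart, gastrocnemian and abdominal muscle. KCNIP2, KCNJ3, KCNJ5 and KCNJ8 separate above, and KCNS3, KCNQ5, KCNMA1, KCNA7 and KCNC4 separate below; KCNJ2, KCNN3 and KCNJ11 overlap.

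The repolarising genes KCNA4, KCNQ1, KCND3 and KCNH2 had heart means of 3.83, 4.16, 1.95 and 3.13 FPKM against 0.17, 0.151, 0.391 and 1.10 in skeletal muscle (log2 differences 2.65, 2.60, 1.34 and 0.98). KCNAB2, KCNE2, KCNMB4 and KCNMB3 were higher too. ABCC9, the partner of KCNJ8, had 40.9 and 32.7 FPKM (log2 difference 0.36 ± 0.09). By family, 4 of 5 inward rectifiers and 5 of 8 auxiliary subunits tested were higher in the heart, and all 3 calcium- or sodium-activated channels were lower.

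KCNS3, a silent subunit, had 0.263, 1.02 and 2.71 FPKM as lowest, median and highest in the heart and 16.1, 54.0 and 105 in muscle (-5.03 ± 0.19). KCNJ11, the ATP-sensitive channel of muscle and islets, had 0.896 against 47.3 FPKM on average (-4.93 ± 0.22), and its highest heart value (2.66) exceeded the lowest muscle value (2.47). KCNQ5 (-4.91 ± 0.15), KCNMA1 (0.205 against 21.9 FPKM, -4.75 ± 0.15), KCNA7 (0.0232 against 14.3) and KCNC4 followed. Apart from KCNJ11, those named here did not overlap, whereas KCNN3 did (-2.55 ± 0.21). KCNT1, KCNE3 and KCNAB1 were lower too, and KCNC1 was listed at 0 in every heart library.

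To find restricted members, tissue enrichment required 5 FPKM or more in the leading tissue, a ratio of at least 5 to the second tissue and an adjusted p under 0.05 in limma. Both tissues were picked on the same libraries, so this p is part of the rule and not an independent test. Of 84 members tested, 2 were called, against 5.8% of all genes. KCNC1 in the cerebellum was 6.29 times the amygdala. KCNU1, the potassium channel of sperm, had a mean of 6.32 FPKM in the testicles and 0.0582 in the next tissue, the pineal gland. Its values were 21.3 FPKM at ZT2 and 38.9 at ZT14 and at most 5.17 in the other 10 libraries, and the same libraries had median spermatid markers of 907 and 1279 FPKM. Without them the mean was 1.57 FPKM. LRRC52, its partner subunit, had 37.2 and 38.1 FPKM in these libraries and at most 3.25 in the others. The call was lost without the animal of ZT2 or of ZT14.

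Several members missed a ratio of 5 but were high in 1 or 2 tissues. KCNE2, the partner of KCNQ1 in acid-secreting parietal cells, had 98, 439 and 2253 FPKM as lowest, median and highest in the antrum and a mean of 206 in the tissue labelled smooth muscle. The parietal marker median of the antrum ran from 12.5 to 3154 FPKM. In the tissue labelled smooth muscle it had a median of 0.663 FPKM but reached 444 at ZT6, and the libraries of ZT6, ZT10 and ZT22 stood apart by these markers. Without all libraries that stood apart the KCNE2 mean there was 137 FPKM and KCNE2 was called tissue-enriched in the antrum. The libraries left out there were partly chosen by parietal markers, and none was left out of the antrum. This call therefore follows partly from the rule and is no separate support for enrichment. KCNJ1 had a mean of 363 ± 202 FPKM (SD, n = 12) in kidney medulla and 108 ± 51.4 in kidney cortex. KCNK16, a leak channel of islets, had 8.25, 17.2 and 40.2 FPKM in the pancreas. KCNA7 had 14.6 and 13.98 FPKM in gastrocnemian and abdominal muscle.

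KCNJ8 had a mean of 110 FPKM in the liver, with 3.78 at ZT6 and 13.1 at ZT0, the libraries with neuron markers at 139 and 124 FPKM. Without the libraries that stood apart its liver mean was 139 FPKM. The heart, at 29.2 FPKM, came next. KCNMB1 was highest in the tissue labelled adrenal cortex (278 FPKM), the aorta (221) and the stomach fundus (161), whose smooth muscle markers had medians of 3266, 1050 and 2011 FPKM, and KCNMA1 reached 81.8 and 80.8 FPKM in the first and last of these. KCNK17 (49.0 FPKM) and KCNA5 (8.66) were highest in the aorta. KCNK2, KCNK3 and KCNA4 were highest in the tissue labelled adrenal medulla (88.0, 62.3 and 33.2 FPKM), where the aldosterone-related KCNJ5 had 22.8.

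In the eye, KCNV2, the silent subunit of photoreceptors, had 65.1, 97.7 and 147 FPKM as lowest, median and highest in the retina, whose photoreceptor markers had a median of 683 FPKM. KCNJ13, the inward rectifier of pigment epithelium, had 456 ± 129 FPKM (SD, n = 11) in the iris and 424 ± 130 (n = 12) in the retinal pigment epithelium. In the pineal gland its mean of 127 FPKM rested on the ZT2 library (980), with a median of 6.44.

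In the brain, KCNAB1 (132 ± 40.8 FPKM, SD, n = 12) and KCNIP2 (123 ± 14.3) were highest in the putamen. The amygdala led for KCNH3 (75.5), KCNN1 (73.7), KCNF1 (72.7), KCNJ4 (51.9) and KCNG1 (28.6 FPKM). Each was at 0 in the ZT8 library of 32790 reads, the shallowest of all. KCNE3 was highest in the cecum (74.7 FPKM), KCNQ1 in the antrum (26.3) and KCNJ15 in kidney cortex (141) and pancreas (130). Among the immune tissues, KCNA3, the lymphocyte channel, was highest in bone marrow (5.58 FPKM) and mesenteric lymphonodes (4.32).

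The 24 h course was tested by fitting a cosine and a sine, with 1 library per time. In the heart, 7 of 17 tested members were called (41.2%, against 42.4% of all genes), so the share is close to the background. The fitted peak lay in the light for 5 of 7 (71.4%, against 67.04% of all genes called), but for 3 of 8 under quantile scaling. KCNAB3 fell from 2.64 FPKM at ZT0 and 2.69 at ZT4 to 0.184 at ZT22, with an amplitude of 0.98 ± 0.19 (SE, log2) and a fitted peak at ZT5.3 (adjusted p = 0.0176). KCNT1 ran from 4.44 FPKM at ZT2 to 0.222 at ZT22 (amplitude 1.07 ± 0.23) and KCNQ1 from 9.95 at ZT4 to 1.02 at ZT22 (0.97 ± 0.23). KCNAB2 (0.84 ± 0.25) and KCNH2 (0.95 ± 0.29, adjusted p = 0.0485) had the same form.

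KCNJ8 and KCNA4 had fitted peaks in the dark. KCNJ8 was lowest at ZT2 (17.8 FPKM) and highest at ZT10 (36.5), still in the light, with 36.2 at ZT14. Its amplitude was 0.37 ± 0.09 and its fitted peak lay at ZT15.0. KCNA4, a transient outward channel gene, rose to 7.30 FPKM at ZT14 from 1.85 at ZT8 (0.60 ± 0.16, peak ZT14.4). KCNIP2, known for daily change in rodent heart, was not called (amplitude 0.54 ± 0.28, adjusted p = 0.262): it was 233 and 237 FPKM at ZT6 and ZT8, 47.9 at ZT10 and 170 at ZT12. KLF15, a regulator of KCNIP2 in rodents, was called with a log2 amplitude of 1.88.

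**Figure D4:**
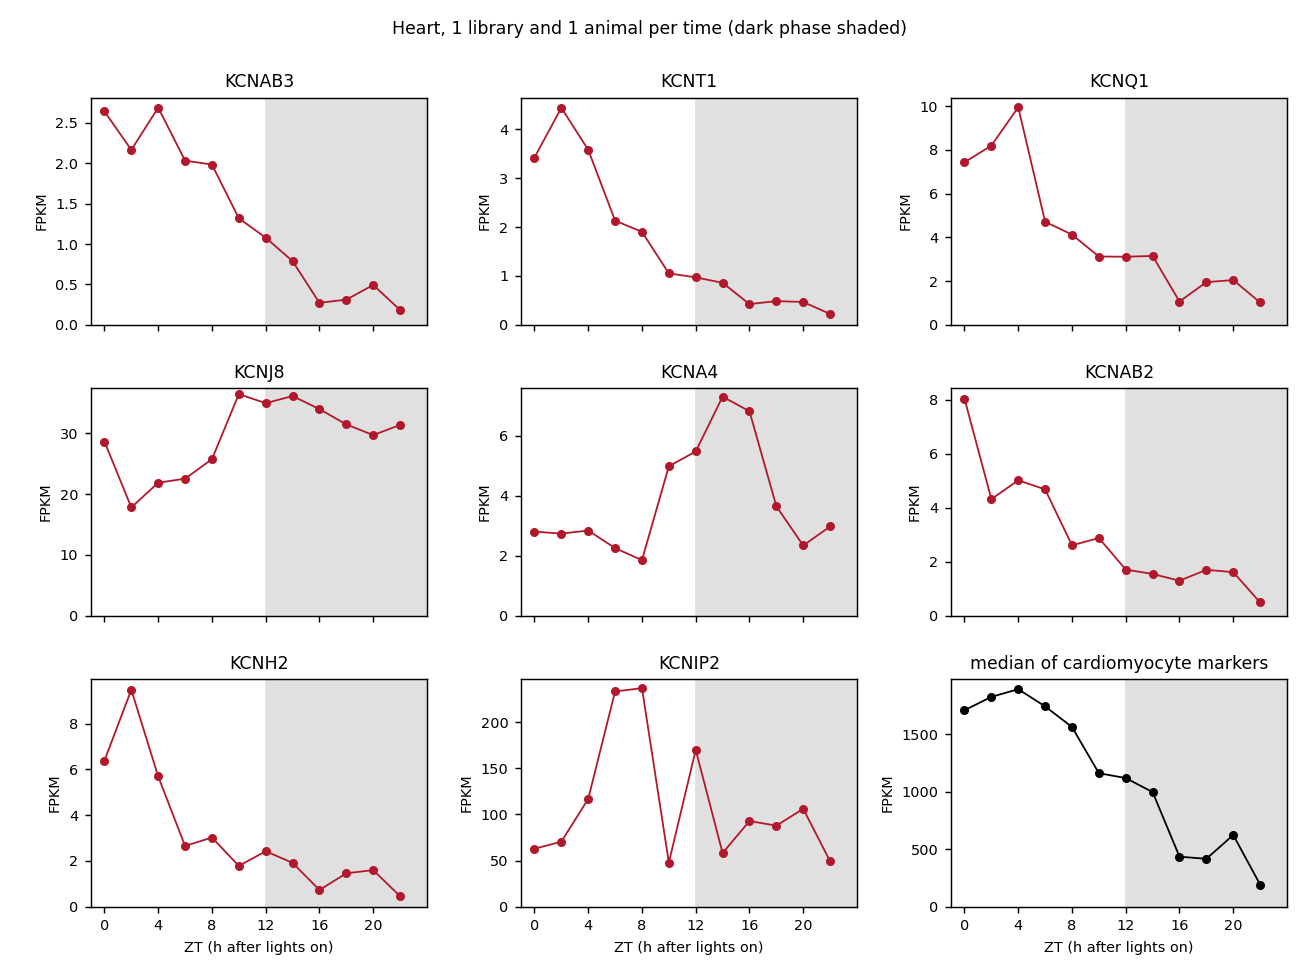
Each panel gives the value of the single heart library at each time (FPKM on the vertical axis from 0, ZT in h on the horizontal axis, dark phase shaded) for the 7 called members and KCNIP2; the last panel is the median of cardiomyocyte markers in the same libraries. KCNAB3, KCNT1, KCNQ1, KCNAB2 and KCNH2 were high early and lowest or near lowest at ZT22, as were the markers, KCNJ8 and KCNA4 were highest near ZT10 to ZT16, and KCNIP2 was not called.

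The median of cardiomyocyte markers in the same libraries was 1889 FPKM at ZT4 and 193 at ZT22, and the ventricular markers ran from 7291 at ZT2 to 872 at ZT22. No member was called when the first component of library differences (31.0% of the variance, with 67.8% of it in the heart following a 24 h curve) was added to the fit, or a linear trend over the day. Without the ZT4 library, which also held adipocyte markers at 22.7 FPKM, no member was called, and without ZT2, ZT12 or ZT16 the calls were 4, 4 and 2. For these settings, here and in the brain and peripheral means below, the share of all genes called is not given. A loss of calls particular to the members therefore cannot be told from a general one.

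In the suprachiasmatic nuclei, none of 45 members was called by limma, where 0.008% of all genes were (1 of 12503), and 12 (26.7%) had an unadjusted p under 0.05, against 19.6% of all genes. None of 8 clock genes was called there, against 7 of 8 in the heart. The smallest adjusted p of a member was 0.0991, for KCNT1, which ran from 4.77 FPKM at ZT4 to 0.453 at ZT14 (amplitude 0.88 ± 0.19). KCNF1 (0.97 ± 0.21), KCND1 (0.97 ± 0.23), KCNK1 (0.54 ± 0.15) and KCNH2 (0.66 ± 0.19) came next by p. KCNT1, KCNF1, KCNK1 and KCNH2 had their lowest value in the ZT14 library, which also had the lowest neuron markers. KCNMA1 had an amplitude of 0.11 ± 0.15, with values from 2.08 to 4.56 FPKM.

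Averaged over the brain, 20 of 49 members were called (40.8%, against 31.7% of all genes), and 17 of them peaked in the light (85%, against 76.3% of all called). Peaks of these 17 lay between ZT5.45 and ZT7.50. KCNH2 had an amplitude of 0.42 ± 0.06 (peak ZT6.5, adjusted p = 0.0019), KCNJ11 of 0.50 ± 0.08, KCNJ9 of 0.43 ± 0.07 and KCNC4 of 0.41 ± 0.07, and KCNAB2, KCNN1, KCNC1 and KCNF1 had 0.36, 0.50, 0.40 and 0.43. KCNH8, KCNK2 and KCNT2 peaked at ZT17.9 to ZT18.4. KCNMA1 (0.03 ± 0.06) and KCNIP2 (0.08 ± 0.07) were not called.

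**Figure D5:**
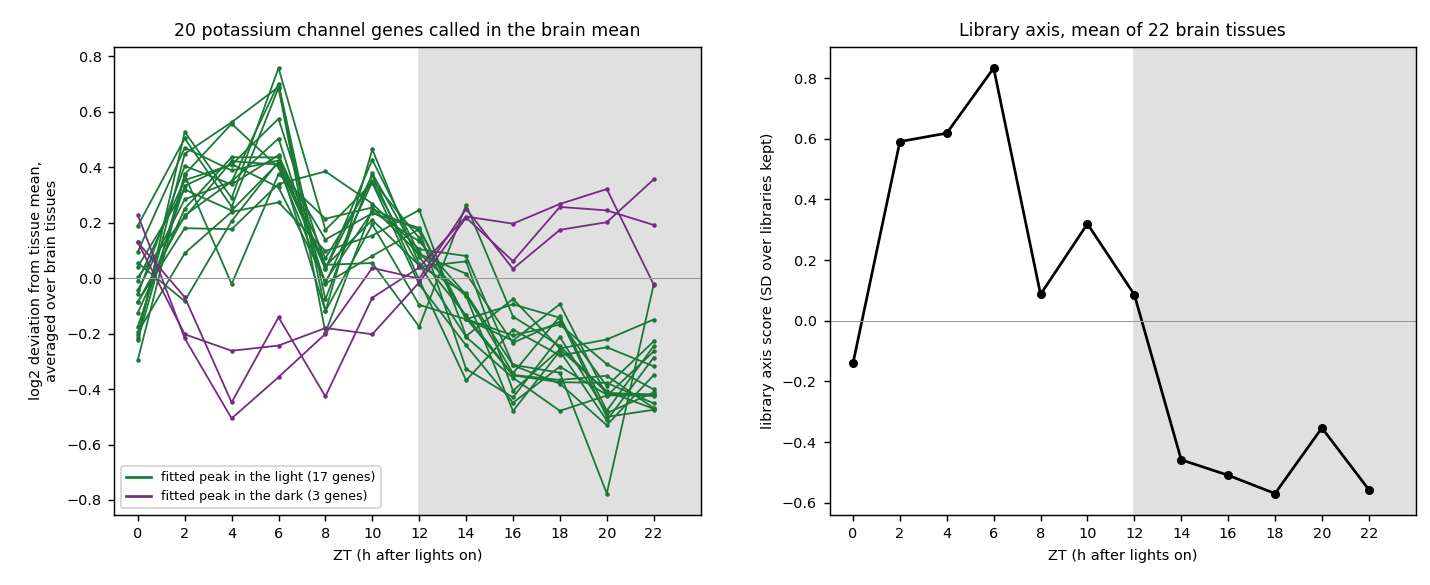
Left, the mean over 22 brain regions of each called member's log2 deviation from its tissue mean, against ZT in h (dark phase shaded), green for a fitted peak in the light and purple for the dark; right, the mean score of the first component of library differences over the same regions. Most green genes and the component were above 0 from ZT2 to ZT6 and below 0 from ZT16.

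The component had a 24 h curve in the brain (83.2% of its variation over time) and none of the 20 members was called with it in the fit, nor with a linear trend. In single regions 48 of 1075 pairs of member and region were called (4.47%, against 3.95% of all pairs). They lay in 6 regions: visual cortex and medial globus pallidus with 11 each, mammilliary body and paraventricular nuclei with 7 each, and lateral globus pallidus and putamen with 6 each. The share of all genes called there was 20.4%, 17.4%, 9.34%, 20.9%, 9.27% and 13.1% in the same order. The other 16 regions had no member called, and at most 3 genes of any kind were called in each of them. Leaving out 1 animal gave between 10 calls (without ZT6 or ZT16) and 67 (without ZT0).

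Over the peripheral tissues 8 of 16 members were called (50%, against 61.3% of all genes), of which none was called with the library component in the fit and 2 members were called with a linear trend. KCNAB3 had an amplitude of 0.58 ± 0.08 with a peak at ZT6.15, KCNQ1 of 0.43 ± 0.07, KCNAB2 of 0.44 ± 0.08, KCNMB4 of 0.38 ± 0.07, KCNMB1 of 0.36 ± 0.07 and KCNK5 of 0.29 ± 0.08, all with peaks between ZT5.7 and ZT7.2. KCNAB1 (0.33 ± 0.09) and KCNJ8 (0.24 ± 0.07) peaked at ZT19.9 and ZT14.6. The heart is one of these tissues. Over all 64 tissues, 108 of 2094 pairs of member and tissue were called (5.16%, against 6.56% of all pairs of gene and tissue), and 41 of 84 members had no call in any tissue. KCNAB3, KCNH2 and KCNAB2, the members with most calls, were called in 13 of 63, 7 of 37 and 7 of 55 tissues tested.

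The difference in rhythm between the heart and the brain mean was called for 0 of 13 members by limma (4 at an unadjusted p under 0.05) and for 0.00986% of all genes (1 gene). KCNA4 (difference amplitude 0.56 ± 0.14, adjusted p = 0.105) and KCNAB3 (0.72 ± 0.19) were closest, followed by KCNT1, KCNMB4 and KCNH2. The 6 calls made without the animal of ZT22 included these 5. Between the suprachiasmatic nuclei and the other hypothalamic regions 0 of 45 members differed, with 4 at an unadjusted p under 0.05 and 0% of all genes called.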

How the data were processed

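PolyA RNA from 767 libraries (64 tissues, 12 animals) was analysed from the table of FPKM values deposited by the authors; per the submitters' processing notes, STAR, featureCounts and DESeq2 were used, with roles, versions and genome build not given in the sources used here. Whole reads were recovered from the FPKM steps for 100% of values in rows where a step was found (tolerance 0.01 read), which gave the depths. A step was accepted only where nearly all values of the row came out whole. The share thus follows from that rule and is no test of the depths. The meaning of the suffix approx in 8 column names is not given.

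Values were taken as log2(FPKM + 0.5) and tested in R 4.3.3 with limma 3.58.1 (variance trend, Benjamini-Hochberg adjustment over all genes whose mean reached 1 FPKM in either group, or, for rhythms averaged over tissues, in at least 0.5 of them; threshold 0.05). Level comparisons used each animal's difference, paired by the animal label; rhythms used cosine and sine terms of 24 h. Each labelled animal gave 1 library per tissue at its own time. In level comparisons p-values therefore measure spread between animals and times together, and in rhythm fits the spread around the fitted curve. A library stood apart by a correlation under 0.85 or by cell type markers at 10 FPKM or more and 20-fold over the tissue's median. It also did so with under 1000000 reads, a limit set after seeing the data. The marker lists were not limited to cell types foreign to the tissue. Scripts were tested on simulated data.

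Members, gene lists and cell markers were chosen with earlier results of these data known, and adrenal markers after seeing the data. Named genes: up to 12 called per direction that reached 5 FPKM in a group, up to 8 called rhythms (5 of smallest p if none) and enriched genes. Others were named after their values were seen, and some members are counted but not reported here by name. Alternatives included pseudocounts, filters, quantile scaling, unpaired fits, covariates, leaving out libraries and leaving out each animal; omitting libraries nearer another animal was chosen after seeing the data.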

Additional observations from a re-analysis of the deposited data

How the results depend on the processing

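Replicate pairing by animal changed few counts: with no replicate block 62, 26, 26 and 56 members were called for brain against periphery, heart against muscle, suprachiasmatic nuclei and cerebellum (62, 26, 27 and 57 paired), and 2 stayed tissue-enriched. Unpaired, KCNAB2 in the suprachiasmatic nuclei (adjusted p = 0.0825) and KCNJ13 in the cerebellum (0.0569) were not called.

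With a filter of 5 FPKM, fewer genes were tested, and calls were 30 for brain against periphery, 13 for heart against muscle, 10 for the suprachiasmatic nuclei, 1 for the heart rhythm, 6 for the brain mean, 0 for the peripheral mean and 25 for region pairs; with no filter, the peripheral mean had 27 and region pairs 17. With the library axis as covariate, heart, brain mean, peripheral mean and region pairs had 0 calls, and with a linear trend heart and brain mean had 0 and the peripheral mean 2. Without the libraries that stood apart the heart rhythm had 0 calls and tissue-enriched members were 4 (KCNE2, KCNK17, KCNC1 and KCNG1). For KCNE2, libraries of the tissue labelled smooth muscle were left out partly for their parietal markers. A ratio of 3 gave 9 tissue-enriched members and tissue medians gave 6. The filter tests fewer genes, and for the other settings the cause was not tested. For alternative settings and left-out animals, here and in the Results, the share of all genes called is not given. These counts therefore cannot show whether a change was particular to the members.

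Fitted peaks moved by more than 6 h under the axis covariate for KCNAB2 (amplitude 0.289), KCNH2 (0.532) and KCNQ1 (0.223) in the heart, for KCNAB2 (0.0274), KCNF1 (0.0984) and KCNN1 (0.103) in the brain mean and for KCNK5 (0.0479) in the periphery; a linear trend did so for KCNAB2 (0.159) and KCNH2 (0.246) in the heart. Under quantile scaling 3 of 8 heart members peaked in the light (5 of 7 otherwise), 14 of 20 in the brain mean (17 of 20) and 5 of 9 in the periphery (6 of 8).

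Leaving out each animal gave 62 to 63, 23 to 27, 24 to 36 and 56 to 59 calls for the level comparisons in the order above. Rhythm calls ran from 0 to 9 in the heart (0 without ZT4, 2 without ZT16, 4 without ZT2 or ZT12), 15 to 21 in the brain mean, 6 to 10 in the periphery, 10 to 67 for region pairs, 0 to 6 for heart against brain and 1 to 3 for tissue-enriched members. Omitting libraries nearer another animal left every count within 1.5 times its value. None of these libraries was from the heart, the skeletal muscles or the suprachiasmatic nuclei. The counts for heart against muscle and for rhythms in the heart and suprachiasmatic nuclei therefore could not change. Values near 1 FPKM rest on few reads in shallow libraries.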

Other observations

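The iris libraries of ZT6 and ZT8 stood apart from the other 9. KCND1, a Kv4 channel, had 74.1 and 127 FPKM there and 1.44 to 8.89 in the others. KCNIP2 had 249 and 299 FPKM against 14.1 to 72.8. Smooth muscle markers were at 420 and 903 FPKM in these libraries, against a tissue median of 33.6. Red blood cell markers were at 170 and 960 FPKM in these libraries and at most 27.1 in the others; their part in these values was not tested.

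The RNAs of the KCNQ1 region were low: 1 KCNQ1DN row reached a mean of 1.01 FPKM in the iris and the other was listed at 0. Of the KCNQ1OT1 segments, KCNQ1OT1_2 was highest, at 0.537 FPKM in the lateral hypothalamus, KCNQ1OT1_3 reached 0.306 in the pancreas and KCNQ1OT1_5 reached 0.124 in the supraoptic nucleus. Each of these means came from few libraries, with a median of 0.

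KCNJ13 reached 525 FPKM in the habenula library of ZT12, where the tissue median was 14.3. The white adipose tissues and omental fat held KCNIP2 at means of 29.2 to 65.6 FPKM, above the 2.12 of skeletal muscle.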
